A study of Drosophila melanogaster with 58 samples.

Results

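Chitin, the polymer that stiffens insect cuticle, is made and finished by a small set of enzymes and membrane proteins, and 10 of their genes were followed here through wing metamorphosis: *mmy*, *kkv*, *reb*, *exp*, *knk*, *rtv*, *serp*, *verm*, *Cda4* and *Cda5*. They were taken by symbol and matched by FlyBase identifier to 10 of the 17559 genes listed in each count file. All 10 passed the filter on low counts in every fit. The study sequenced mRNA from *Drosophila melanogaster* wings labelled as female to follow gene expression before, during and after cell cycle exit and to see what changes when exit is delayed or bypassed. In the 12 wild-type libraries, 2 for each of 6 stages, wings came from third-instar larvae (L3) and from pupae 6, 18, 24, 36 and 44 h after puparium formation (APF). In the 12 transgenic libraries, 2 for each of 3 genotypes at each of 24 h and 44 h, wings expressed CycD, Cdk4, E2F1 and DP with GFP (E2F + CycD), E2F1 and DP with GFP (E2F), or GFP alone (control). All 3 genotypes carried *hs-FLP*, *tub>CD2>GAL4*, *UAS-GFP* and *tub-gal80TS*, so that a heat shock given to second-instar larvae excised the CD2 cassette, GAL4 was then made from the tubulin promoter in cells that had lost the cassette and in their descendants, and a later temperature shift released GAL4 from GAL80. The share of wing cells that had lost the cassette was not measured here, each transgenic library therefore holds an unknown mixture, and its stage is the equivalent of wild-type development at a constant temperature. Nothing in the sources used here says that the 2 libraries of a group came from separate sets of animals. The p-values therefore measure spread between libraries, which the main fits estimate for each gene over all groups of a fit together.

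Wing epithelial cells lay down a thin pupal cuticle early in metamorphosis and the adult cuticle later. Chitin is built from UDP-*N*-acetylglucosamine by a synthase in the apical membrane, is extruded, and is then assembled, protected from chitinases and partly deacetylated in the extracellular matrix. Of the genes followed, *mmy* encodes the pyrophosphorylase that makes UDP-*N*-acetylglucosamine, *kkv* the epidermal chitin synthase, and *reb* and *exp* a pair of related proteins that Kkv needs to deposit chitin. *knk* encodes a protein that protects and organises new chitin, *rtv* a membrane protein needed to deliver Knk, *serp* and *verm* chitin deacetylases known from control of tracheal tube length in the embryo, and *Cda4* and *Cda5* further proteins of the deacetylase family.

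Reads on genes numbered 11201219 to 16332737 in the transgenic libraries and 1900774 to 7512920 in the wild-type ones, where 3 counts, taken as the floor, correspond to 0.18 to 0.27 and 0.40 to 1.58 CPM, the count scaled to a common library size. The carried genes followed the labels in part. *E2f1* was at 1338 and 908.3 CPM in E2F + CycD wings, 3787 and 3747 CPM in E2F wings, against 432.3 and 473.2 CPM in control wings at 24 h, and *CycD* was at 877 and 595.6 CPM in E2F + CycD wings against 58.8 and 60.8 CPM in control wings. *Dp* averaged 141.4 CPM in E2F + CycD wings and 768.1 CPM in E2F wings, against 79.5 CPM in control wings at 24 h, and its log2 fold change over control in E2F + CycD wings was not called at either stage (0.83 at 24 h and 0.52 at 44 h). All 4 wing markers found (*vg*, *nub*, *sd* and *rn*) had counts in every library. *roX1* and *roX2*, male-specific RNAs of dosage compensation, were not low in all libraries labelled female. *roX1* was at 194.1 and 9.0 CPM at L3 and 103 and 49.3 CPM at 18 h in wild-type wings, where replicate 1 had 26 and 27 counts of *roX2* at these stages, against 0.875 to 4.64 CPM of *roX1* in the transgenic libraries, and its part in the results was not tested. Levels below are CPM after edgeR's TMM scaling. A gene was called changed at a Benjamini-Hochberg adjusted p under 0.05 in edgeR's quasi-likelihood test, over all genes of the fit, together with a log2 fold change above 1 or below -1. At 6 h the 2 wild-type libraries lay far apart, with 5.81% of 8669 genes more than 2-fold higher in replicate 1 and 5.61% more than 2-fold lower, against 0.58% to 3.06% in either direction at other stages, except for 0.20% lower at L3. Replicate 1 at 6 h was 4.33 times replicate 2 for *Cda5*, 3.74 times for *serp*, 3.68 times for *Cda4*, 3.42 times for *verm*, 3.14 times for *mmy* and *reb*, 1.74 times for *kkv* and 1.57 times for *exp*, while *rtv* (1.02) and *knk* (0.967) were alike in both. In the same libraries the fat body marker *Fbp1* was at 58.7 CPM in replicate 1 and 367 CPM in replicate 2, and the tracheal marker *trh* at 68.3 and 29.0 CPM. The part of these markers in the members' spread was not tested. Among the transgenic groups the control libraries at 44 h lay furthest apart, with 2.44% of 9636 genes more than 2-fold higher in replicate 1 and 2.39% lower. E2F wings at 44 h had 0.654% higher and 1.58% lower, and the remaining groups 0.135% to 0.56% in either direction.

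All 10 members changed over the wild-type stages, where 74.7% of the 8669 genes tested did, and 9 did under library totals, without *rtv* (edgeR adjusted p = 0.0679). The largest fitted difference between any 2 stages ran from 1.62 on the log2 scale for *rtv* to 9.10 for *serp*, with a median of 6.17 over the members and 1.76 over all genes tested, where *reb*, with 0 and 1 counts at L3, enters at a fitted value that is no bound. Expression came in 2 waves for most of them. A first at 6 h took in 9 members and a second at 44 h took in 7, and *exp*, *serp*, *verm*, *Cda4* and *Cda5* stood at 0.182% to 9.78% of their highest stage mean between these times, at 18 h, 24 h and 36 h. The highest mean fell at 6 h for 6 members (*mmy*, *reb*, *exp*, *serp*, *verm* and *Cda4*) and at 44 h for 4 (*kkv*, *knk*, *rtv* and *Cda5*). With replicate 1 of every stage alone, *kkv* and *Cda5* peaked at 6 h instead, with replicate 2 alone *reb* peaked at 18 h, and scaling by library totals also moved *kkv* to 6 h.

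**Figure D1:**
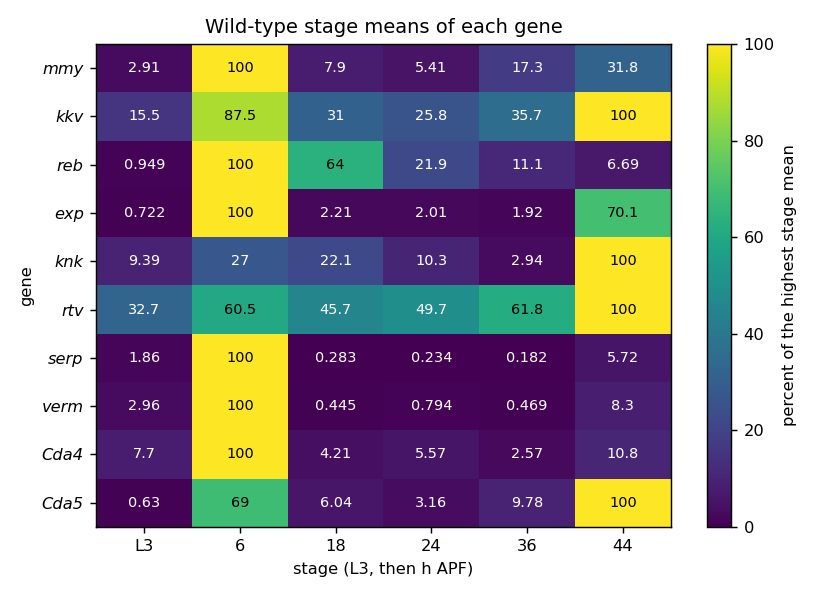
Mean CPM of each gene at each wild-type stage (L3, then h APF) as a percentage of that gene's highest stage mean, printed in each cell and shown by colour. *serp*, *verm* and *Cda4* stood at 5.72%, 8.3% and 10.8% of their 6 h mean at 44 h, while *exp* returned to 70.1% of its own.

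At 6 h, against L3, 9 of 10 members were called higher, where 18.3% of all genes tested were, and the members' median log2 fold change was 5.09 against 0.00 over all genes. The tenth, *rtv*, differed by 0.89 ± 0.19 (SE) on the log2 scale, short of the limit on size. At 18 h, against 6 h, 7 members were called lower, where 17.7% of genes were, and all 10 had values below 0 (median -3.59, against 0.02 over all genes). *reb*, *knk* and *rtv* were the members not called in that step.

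Between 18 h and 36 h few members moved. *knk* was called lower at 24 h than at 18 h (5.1% of genes were) and lower again at 36 h than at 24 h (11.1% of genes). *mmy* and *Cda5* were called higher at 36 h than at 24 h (15.3% of genes). Apart from the second *knk* step, these calls were lost in some fits with 1 library left out, where the log2 fold changes moved little. The first *knk* step was -1.11, and -0.95 without replicate 2 at 18 h or -1.09 without replicate 1 at 24 h. For *mmy* the value was 1.68, and 1.67 without replicate 1 at 24 h. For *Cda5* it was 1.64, and 1.54 to 1.75 without any 1 of the 4 libraries at 24 h and 36 h.

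At 44 h, against 36 h, 7 members were called higher and none lower, where 10.8% of genes were called higher, with a median log2 fold change of 2.71 over the members and 0.08 over all genes. *reb*, *rtv* and *mmy* were not called. Set directly against 6 h, the 44 h wing had 1 member called higher, *knk* (17.0% of genes), and 5 called lower, *reb*, *mmy*, *serp*, *verm* and *Cda4* (14.7% of genes). Without replicate 1 at 6 h the call of *mmy* was lost, at a log2 fold change of -0.61 against -1.66 with both libraries, and *Cda5*, which was not called, stood at 0.53 with both, at -0.13 without replicate 2 and at 1.95 without replicate 1.

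**Figure D2:**
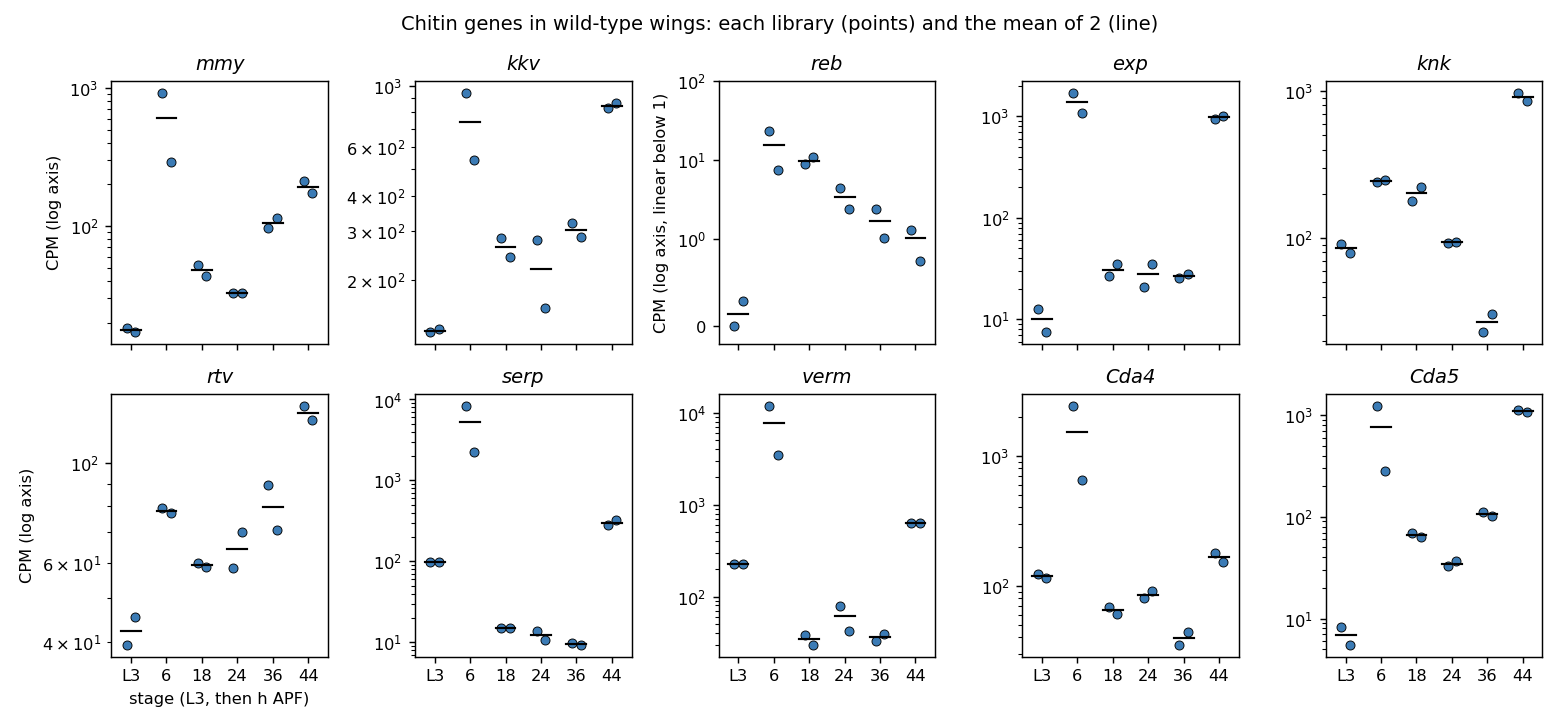
CPM (log axes, linear below 1 for *reb*) of each gene in every wild-type library, by stage (L3, then h APF). Points are libraries, with replicate 1 left of replicate 2, and lines are means of 2. The libraries at 6 h lie far apart for *mmy*, *serp*, *verm*, *Cda4* and *Cda5*.

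*mmy*, which supplies the substrate, was at 18.1 and 17.1 CPM at L3, 919.4 and 292.4 at 6 h, 52.1 and 43.6 at 18 h, 32.6 and 33.0 at 24 h, 96.1 and 113.8 at 36 h, then 210.5 and 174.4 at 44 h. Both 6 h libraries stood above all others, and the 44 h libraries above those of L3, 18 h, 24 h and 36 h. The 6 h level exceeded that of L3 by 5.10 ± 0.46 on the log2 scale (edgeR adjusted p = 3.07e-06), 4.04 without replicate 1 at 6 h, and the 18 h level was below it by a log2 fold change of -3.66 ± 0.42, or -2.60 without that library. *mmy* had risen by 36 h against 24 h by 1.68 ± 0.41 (edgeR adjusted p = 0.00653).

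*kkv*, the chitin synthase, stayed at 15.5% or more of its highest stage mean throughout. It was at 129.6 and 132.4 CPM at L3, 940.3 and 538.9 at 6 h, 283 and 241.6 at 18 h, 277.8 and 157.9 at 24 h, 320 and 284.3 at 36 h, then 826.9 and 864.3 at 44 h. The libraries of 6 h and 44 h overlapped each other and lay above those of every other stage. It rose 5.65-fold at 6 h against L3 (log2 fold change 2.50 ± 0.32, edgeR adjusted p = 5.03e-05), was 2.82-fold lower at 18 h than at 6 h (adjusted p = 0.00167), and rose 2.80-fold at 44 h against 36 h (adjusted p = 0.00298). At 44 h against 6 h its log2 fold change had a 95% interval of -0.45 to 0.84.

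The genes of the 2 proteins that act with Kkv had unlike courses. *exp* was at 12.6 and 7.5 CPM at L3, 1701 and 1084 at 6 h, 26.7 and 34.9 at 18 h, 20.6 and 35.3 at 24 h, 25.5 and 27.9 at 36 h, then 949.4 and 1004 at 44 h. Every library of 6 h and 44 h exceeded the highest of the other stages, and *exp* rose 134-fold at 6 h against L3 (log2 fold change 7.06 ± 0.40, edgeR adjusted p = 8.53e-08), was 45.4-fold lower at 18 h than at 6 h (adjusted p = 2.83e-07) and rose 36.5-fold at 44 h against 36 h (adjusted p = 9.46e-07). *reb* had the lowest level of the members per exon length in every group. It was at 0 and 0.29 CPM at L3 (0 and 1 counts), 23.2 and 7.4 at 6 h (111 and 24 counts), 8.8 and 10.8 at 18 h, 4.3 and 2.4 at 24 h, 2.4 and 1.0 at 36 h, then 1.3 and 0.74 at 44 h. The summed counts at 6 h over those at L3 gave a scaled ratio of 212, with an exact Clopper-Pearson 95% interval of 37.4 to 8423 that covers counting error only. *reb* was not called higher at 44 h than at 36 h, and at 44 h it was called lower than at 6 h (log2 fold change -3.93 ± 0.65, edgeR adjusted p = 3.98e-04, and -2.85 without replicate 1 at 6 h).

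Both genes of chitin protection and organisation peaked at 44 h. *knk* was at 91.7 and 79.5 CPM at L3, 242.1 and 250.5 at 6 h, 179.4 and 224.1 at 18 h, 92.7 and 94.7 at 24 h, 23.1 and 30.5 at 36 h, then 970.5 and 853.9 at 44 h. It was lowest at 36 h and highest at 44 h, with no overlap between these and any other stage, a 34.0-fold rise (log2 fold change 5.09 ± 0.25, edgeR adjusted p = 6.82e-08). Of the exon bases of *knk*, 64% lie opposite an antisense RNA gene, asRNA:CR46038, and since the strand setting of the counting is not given in the sources used here, its counts are uncertain to that extent. *rtv* was the steadiest member, at 39.3 and 45.3 CPM at L3, 79.2 and 77.3 at 6 h, 59.8 and 58.5 at 18 h, 58.4 and 70.2 at 24 h, 89.2 and 70.8 at 36 h, then 134 and 124.7 at 44 h, and no step between neighbouring stages was called.

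*serp* and *verm* had the sharpest courses. *serp* was at 97.8 and 98.1 CPM at L3, 8308 and 2220 at 6 h, 14.9 and 14.9 at 18 h, 13.8 and 10.8 at 24 h, 9.8 and 9.3 at 36 h, then 278.3 and 323.8 at 44 h. *verm* was at 228.3 and 226.2 CPM at L3, 11867 and 3469 at 6 h, 38.4 and 29.8 at 18 h, 79.8 and 41.9 at 24 h, 32.4 and 39.5 at 36 h, then 633.7 and 638.5 at 44 h. In both genes the stages 6 h, 44 h and L3 followed each other from high to low without overlap, and all libraries of 18 h, 24 h and 36 h lay below L3. *serp* rose 53.7-fold at 6 h against L3 (log2 fold change 5.75 ± 0.53, edgeR adjusted p = 3.64e-06), was 352-fold lower at 18 h than at 6 h (adjusted p = 4.24e-07) and rose 31.4-fold at 44 h against 36 h (adjusted p = 2.13e-05). *verm* rose 33.7-fold, was 224-fold lower and rose 17.7-fold in the same steps (adjusted p = 1.23e-05, 8.93e-07 and 7.94e-05). Without replicate 1 at 6 h the first log2 fold change was 4.50 for *serp* and 3.93 for *verm*, and the second -7.22 for *serp* and -6.66 for *verm*; without replicate 2 those of *serp* were 6.36 and -9.07. At 44 h against 6 h the log2 fold change was -4.13 ± 0.49 for *serp* and -3.59 ± 0.50 for *verm*, and ranged from -4.75 to -2.88 and from -4.19 to -2.45 with either library of 6 h left out.

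*Cda4* and *Cda5* shared the 6 h wave but not the size of the later one. *Cda4* was at 122.4 and 114.1 CPM at L3, 2416 and 656 at 6 h, 68.3 and 60.8 at 18 h, 80.0 and 91.0 at 24 h, 35.1 and 43.8 at 36 h, then 179 and 151.5 at 44 h. *Cda5* was at 8.3 and 5.5 CPM at L3, 1229 and 284.1 at 6 h, 68.9 and 63.7 at 18 h, 32.6 and 36.8 at 24 h, 111.8 and 102.7 at 36 h, then 1122 and 1072 at 44 h. The 44 h libraries of *Cda4* lay below both 6 h libraries, while those of *Cda5* lay between them. *Cda4* rose 13.0-fold at 6 h against L3 and 4.19-fold at 44 h against 36 h (edgeR adjusted p = 5.10e-05 and 0.00439), and *Cda5* 105-fold and 10.2-fold (adjusted p = 3.33e-06 and 3.28e-04). With either 6 h library left out, the first log2 fold change ranged from 2.47 to 4.31 for *Cda4* and from 5.29 to 7.36 for *Cda5*, and the later log2 fold change of 18 h against 6 h, -4.57 for *Cda4* and -3.51 for *Cda5*, ranged from -5.17 to -3.34 and from -4.16 to -2.10.

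On a scale that also divides by exon length (RPKM, computed here), *verm* was the most abundant member at 6 h, at 2852 ± 2255 RPKM (SD, n = 2), ahead of *serp* at 1825 ± 1521 and *Cda4* at 699.7 ± 577.8. Much of that spread was shared, since replicate 1 was 3.42, 3.74 and 3.68 times replicate 2 for these 3 genes. In each of the 2 libraries *verm* stood above *serp*, and *serp* above *Cda4*. Below them at 6 h stood *exp* at 269.1 ± 90.4, *mmy* at 243 ± 182, *kkv* at 113.7 ± 46.1, *knk* at 80.4 ± 0.06, *Cda5* at 61.8 ± 55.5, *rtv* at 53.7 ± 2.1 and *reb* at 6.09 ± 4.55 RPKM. At 44 h the order had *knk* first, at 286.3 ± 22.7 RPKM, then *verm* at 225.6 ± 3.7, *exp* at 181 ± 9, *kkv* at 124.6 ± 5.3 and *serp* at 99.6 ± 11.8. *Cda5* (85.3 ± 1.8) and *rtv* (85.3 ± 3.4) were level, followed by *mmy* (73.6 ± 9.0), *Cda4* (71.7 ± 7.6) and *reb* (0.388 ± 0.146). The deacetylase genes *verm*, *serp* and *Cda4* led the order at 6 h, while at 44 h *serp* stood below *knk*, *exp* and *kkv*, and *Cda4* above *reb* alone, and in whole wings fewer expressing cells and less RNA per cell cannot be told apart.

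The rest of the chitin pathway was followed with 20 further genes matched, of which 13 passed the filter in every fit. *Chs2*, the other chitin synthase gene, *Cda9* and *obst-F*, *obst-G*, *obst-H*, *obst-I* and *obst-J* did not, and had at most 13 counts in any library. At 6 h against L3, 11 of the 13 were called higher, where 18.3% of all genes tested were, and none lower, with a median log2 fold change of 3.02. They included *Gasp* (6.03 ± 0.76), which encodes a chitin-binding protein, *obst-A* (5.92 ± 0.41), an organiser of the chitin matrix, and *Gnpnat* (2.39 ± 0.26), an enzyme of the glucosamine pathway. The 6 h libraries lay far apart here too, at 10346 and 1820 CPM for *Gasp* and 7468 and 3252 CPM for *obst-A*, and without replicate 1 at 6 h the log2 fold changes were 4.29 and 5.20, both called. At 18 h against 6 h, 11 were called lower, where 17.7% of genes were. At 44 h against 36 h 10 were called higher, where 10.8% of genes were, and 1, *Gfat2* (2-fold, edgeR adjusted p = 0.00875), lower, where 824 of 8669 genes were. *Gnpnat* (3.82 ± 0.28), *Pgi* (2.92 ± 0.24, a sugar phosphate isomerase) and *Gasp* (4.81 ± 0.71) were among the 10. Unlike most members, 8 of the 13 were already called higher at 36 h against 24 h, where 15.3% of genes were, and none was called lower. Among the 8 were *mtg* (3.97 ± 0.31), *Cda3* (2.93 ± 0.33) and *obst-A* (2.91 ± 0.36). That the 2 sets differ in this was not tested. Under library totals 10 were called higher and 2 lower at 6 h, 9 lower at 18 h, 7 higher at 36 h, and 7 higher and 1 lower at 44 h, each against the stage before it.

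*serp* and *verm*, the members most alike, are also neighbours on chromosome arm 3L, at 3L:19700977-19708015 and 3L:19690033-19695260 on the minus strand of the Release 6 genome. The 30 bases from 41 to 12 before the annotated start (Ensembl annotation on that build) are shown for the 4 deacetylase genes because the core promoter lies there and these 4 members were called lower in both genotypes at 44 h. Capitals mark TATAAA.
serp (3L:19708027-19708056, minus strand): cgccaccattttgcaTATAAAagagtgatc
verm (3L:19695272-19695301, minus strand): gacacctcggcttgataaatagaactcgtt
Cda4 (X:22632722-22632751, minus strand): gcggcgcgttggtttcttgcaatttcttgg
Cda5 (2L:59280-59309, minus strand): aaagccagacttcgaaacttggttggctgg
Of the 10 members, 1, *serp*, held TATAAA with its first base between 40 and 20 before the start (at -26), and 8% of 13666 promoters did. In windows of 250 bases before to 50 after the start, searched on both strands, none of the members held the Grainy head motif AACCGGTT (0.746% of promoters did), the Ftz-F1 motif CAAGGTCA (0.512%) or the E2F motifs TTTCCCGC, TTTGGCGC, TTTCGCGC and TTTGCCGC (6.44% held at least 1). The Blimp-1 motif GNGAAAGT was held by 2 members, *kkv* and *exp*, and by 4.25% of promoters. In *kkv* its match (capitals, on the other strand from the gene, first base at -210) lies at 3R:5393058-5393087:
kkv (3R:5393058-5393087, minus strand): tttctaggaaaACTTTCTCttctgtttaag
These matches describe letters in a window and are not binding sites. The window of *Cda5* held no match to the Blimp-1 motif. The paper reports a high-scoring Blimp-1 site in a peak of chromatin accessibility assigned to *Cda5*. It counts this peak among those not opened by 44 h in wings with compromised cell cycle exit, and calls *Cda5* a likely direct target. Only the windows and letters given above were searched here, so a *Cda5* site elsewhere or with other letters was not tested.

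In the transgenic wings the deacetylases carried most of the difference from control. Control levels of the 4 deacetylase genes were themselves called above those of wild type at 44 h, as given further below. At 44 h, 6 members were called lower in E2F + CycD wings, where 16.1% of 9636 genes were, and 4 in E2F wings, where 10.5% of genes were, and none was called higher in either. *Cda4*, *Cda5*, *serp* and *verm* were among them in both, and *exp* and *rtv* were called in E2F + CycD wings. At 24 h *Cda5*, *exp* and *serp* were called lower in E2F + CycD wings, where 1.95% of genes were, and in E2F wings, where 2.01% of genes were. The members' median log2 fold change was -1.30 in E2F + CycD wings and -0.69 in E2F wings at 44 h, and -0.43 and -0.94 at 24 h, against -0.07 to 0.01 over all genes. The 2 comparisons of a stage share their control libraries.

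**Figure D3:**
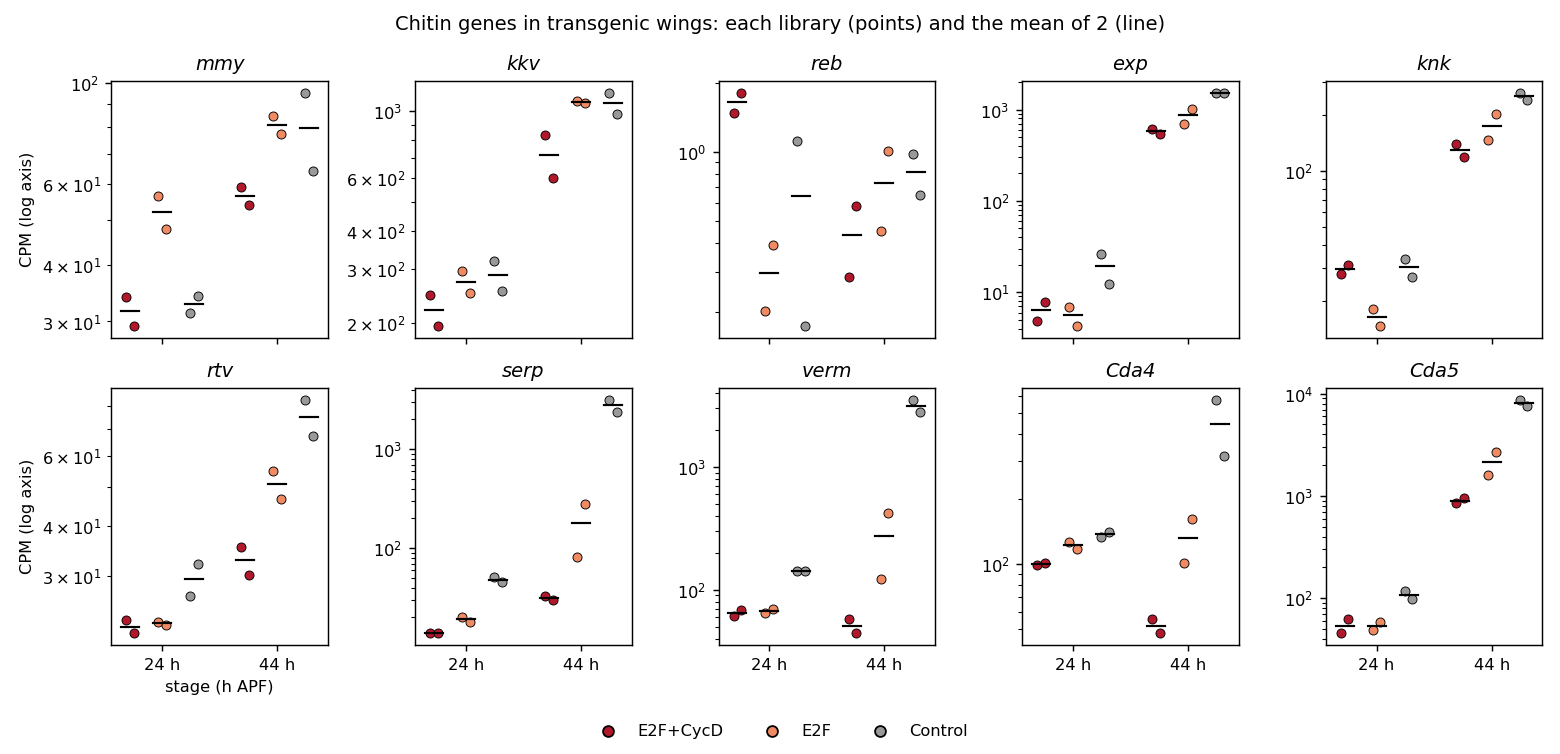
CPM (log axes) of each gene in every transgenic library at 24 h and 44 h APF, with E2F + CycD wings on the left, E2F wings in the middle and control wings on the right of each stage. Points are libraries and lines are means of 2. For *serp*, *verm*, *Cda4*, *Cda5*, *exp*, *rtv* and *knk* at 44 h the 3 genotypes do not overlap.

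The scaling bears on these counts. The TMM factors were 1.118 and 1.159 in E2F + CycD wings, 0.918 and 0.838 in E2F wings, against 0.585 and 0.565 in control wings at 44 h. Scaling by library totals therefore moved the median of all genes at 44 h by 0.98 on the log2 scale for E2F + CycD and by 0.61 for E2F against control, by 0.16 and 0.17 at 24 h, by 0.37 for E2F + CycD against E2F at 44 h, and by -0.57 to 0.51 in the wild-type steps. Under that scaling *exp* (log2 fold change -0.42) and *rtv* (-0.21) lost their calls against control in E2F + CycD wings at 44 h. *Cda5* lost its calls at 24 h (-0.86 in E2F + CycD and -0.85 in E2F wings), and *knk* at 6 h against L3 (0.93) and *kkv* at 18 h against 6 h (-0.99) lost theirs. *serp*, *verm*, *Cda4* and *Cda5* kept their calls against control in both genotypes at 44 h. Between E2F + CycD and E2F wings at 44 h, *Cda4* (-0.97) and *Cda5* (-0.86) lost theirs.

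*serp* at 44 h was at 32.8 and 30.2 CPM in E2F + CycD wings, 81.1 and 277 CPM in E2F wings, and 3156 and 2384 CPM in control wings. The 3 genotypes did not overlap, and the 2 E2F libraries lay far apart. *serp* was 87.8-fold lower in E2F + CycD wings than in control wings (log2 fold change -6.46 ± 0.50, edgeR adjusted p = 1.32e-06) and 15.5-fold lower in E2F wings (-3.95 ± 0.44, adjusted p = 3.30e-05). With 1 of the 2 E2F libraries left out the second value was -3.31 without replicate 1 and -5.07 without replicate 2. At 24 h *serp* was at 13.8 and 14.1 CPM in E2F + CycD wings, 20.1 and 18.2 in E2F wings, against 50.9 and 45.4 in control wings, again without overlap. The log2 fold change was -1.79 ± 0.42 (edgeR adjusted p = 0.0148) in E2F + CycD and -1.33 ± 0.41 (adjusted p = 0.0365) in E2F wings, and both calls were lost without any 1 of the libraries compared, at adjusted p = 0.053 to 0.0947 and 0.107 to 0.163 and with log2 fold changes of -1.87 to -1.71 and -1.41 to -1.25.

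*verm*, the neighbour of *serp*, had like values. At 44 h it was at 57.7 and 44.1 CPM in E2F + CycD wings, 123.3 and 421.6 CPM in E2F wings, against 3519 and 2810 CPM in control wings, with no overlap. Its log2 fold change was -5.96 ± 0.49 in E2F + CycD wings (62.2-fold lower, edgeR adjusted p = 2.08e-06) and -3.54 ± 0.44 in E2F wings (11.6-fold lower, adjusted p = 6.88e-05), the second being -2.90 without replicate 1 and -4.66 without replicate 2 of the E2F wings. At 24 h it was at 61.3 and 68.3 CPM in E2F + CycD wings, 64.8 and 69.9 in E2F wings, against 142.7 and 142.5 in control wings. Both genotypes lay below control without overlap, but neither difference was called (log2 fold change -1.14 and -1.08, edgeR adjusted p = 0.085 and 0.0742); with DESeq2 both were, at -1.22 and -1.14 and adjusted p = 0.0141 and 0.0171.

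*Cda5* was, with *serp*, called at both stages in both genotypes. At 44 h it was at 842.3 and 948 CPM in E2F + CycD wings, 1585 and 2693 CPM in E2F wings, against 8698 and 7611 CPM in control wings. The genotypes did not overlap, and *Cda5* was 9.11-fold lower in E2F + CycD (edgeR adjusted p = 2.68e-06) and 3.81-fold lower in E2F wings (adjusted p = 1.29e-04). At 24 h the values were 45.1 and 62.0 CPM in E2F + CycD wings, 48.3 and 58.6 in E2F wings, against 118.4 and 97.9 in control wings. Both genotypes lay below control, by log2 fold changes of -1.01 ± 0.26 and -1.02 ± 0.26 (edgeR adjusted p = 0.0218 and 0.0144). The call in E2F wings was lost without replicate 1 of the control (-0.88) or of the E2F wings (-0.90), and that in E2F + CycD wings without replicate 1 or 2 of the control (-0.88 and -1.14, adjusted p = 0.132 and 0.055) or replicate 1 of the E2F + CycD wings (-0.81).

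*Cda4* at 44 h was at 55.4 and 47.5 CPM in E2F + CycD wings, 101.4 and 161.6 CPM in E2F wings, against 578.2 and 315.6 CPM in control wings. No libraries of different genotypes overlapped, and it was 8.69-fold lower in E2F + CycD wings (log2 fold change -3.12 ± 0.28, edgeR adjusted p = 3.84e-06) and 3.40-fold lower in E2F wings (-1.77 ± 0.27, adjusted p = 2.96e-04). At 24 h it was at 99.0 and 101.3 CPM in E2F + CycD wings, 126.1 and 117.8 in E2F wings, against 133.9 and 141 in control wings, and was not called.

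*exp*, of the pair that acts with the synthase, was low at 24 h, at 4.9 and 7.9 CPM in E2F + CycD wings, 6.9 and 4.2 in E2F wings, against 26.1 and 12.4 in control wings. Every control library exceeded those of both other genotypes, and the log2 fold change was -1.58 ± 0.36 in E2F + CycD (edgeR adjusted p = 0.0128) and -1.77 ± 0.36 in E2F wings (adjusted p = 0.0042). Without replicate 1 of the control these were -0.97 (adjusted p = 0.133) and -1.16 (adjusted p = 0.0498), without replicate 1 of the E2F + CycD wings the first was -1.29 (adjusted p = 0.12), and without replicate 2 of the E2F wings the second was -1.47 (adjusted p = 0.0522). At 44 h *exp* was at 607.1 and 545.4 CPM in E2F + CycD wings, 701.2 and 1026 CPM in E2F wings, against 1531 and 1523 CPM in control wings. The 3 genotypes were in separate ranges at 44 h, with a called log2 fold change of -1.41 ± 0.33 in E2F + CycD wings (adjusted p = 0.00376) and one of -0.82 ± 0.32 in E2F wings that was not called (adjusted p = 0.0621). *reb* stayed at or below 1.81 CPM in every transgenic library, with 3 to 31 counts, and was not called in any of these comparisons.

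*kkv* itself differed little. At 44 h it was at 832.5 and 601.3 CPM in E2F + CycD wings, 1075 and 1063 CPM in E2F wings, against 1146 and 978.3 CPM in control wings. The E2F libraries lay between the 2 control libraries and the E2F + CycD libraries below both. In E2F wings the log2 fold change was 0.01, with a 95% interval of -0.42 to 0.44, and in E2F + CycD wings -0.57, with an interval whose end nearest to 0 was -0.13 (edgeR adjusted p = 0.0322), too small to be called, and 0.41 under library totals. At 24 h it was at 246.9 and 194.8 CPM in E2F + CycD wings, 295.2 and 250.5 in E2F wings, against 319.5 and 255 in control wings, and was not called.

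Among the members, *mmy*, of substrate supply, and *knk* and *rtv*, of chitin protection, gave 1 call against control between them. That was *rtv* in E2F + CycD wings at 44 h, and supply genes outside the members are given further below. *rtv* at 44 h was at 35.4 and 30.1 CPM in E2F + CycD wings, 55.1 and 46.6 in E2F wings, against 82.8 and 67.1 in control wings, with no overlap and a log2 fold change of -1.19 ± 0.16 in E2F + CycD wings (edgeR adjusted p = 6.91e-05) beside -0.56 ± 0.15 in E2F wings. *knk* at 44 h was at 139.6 and 118.2 CPM in E2F + CycD wings, 146.2 and 200.9 in E2F wings, against 261.7 and 239 in control wings. Control libraries lay above both other genotypes, but the log2 fold changes of -0.96 ± 0.18 and -0.53 ± 0.18 were not called and came to 0.02 and 0.07 under library totals. At 24 h *knk* was at 27.9 and 31.3 CPM in E2F + CycD wings, 18.2 and 14.7 in E2F wings, against 33.7 and 27.0 in control wings, and its E2F libraries were the lowest (log2 fold change over control -0.88 ± 0.19, edgeR adjusted p = 0.00605, not called). *mmy* at 44 h was at 59.1 and 54.1 CPM in E2F + CycD wings, 84.7 and 77.3 in E2F wings, against 95.3 and 64.3 in control wings. Its E2F libraries lay between the control libraries. At 24 h its values were 34.0 and 29.3 CPM in E2F + CycD wings, 56.6 and 48.0 in E2F wings, against 31.4 and 34.0 in control wings, so that the E2F libraries were the highest (log2 fold change over control 0.68 ± 0.18, edgeR adjusted p = 0.0185, not called).

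**Figure D4:**
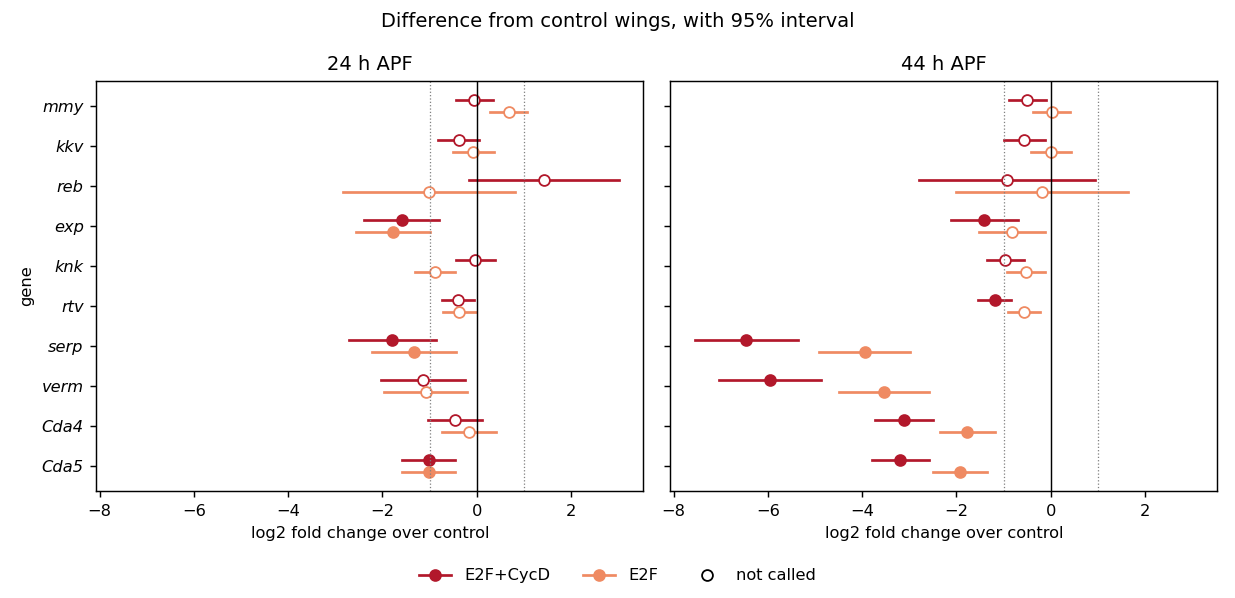
Log2 fold change of each gene over control wings at 24 h and 44 h APF, for E2F + CycD and E2F wings. Points are edgeR estimates, filled where called, bars are 95% intervals, and dotted lines mark -1 and 1. *serp* and *verm* at 44 h lie furthest from 0, at -6.46 and -5.96 in E2F + CycD wings.

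Set against E2F wings directly, E2F + CycD wings at 44 h had 4 members called lower, the same 4 deacetylase genes, where 6.89% of genes were called lower. The log2 fold change was -2.50 ± 0.42 for *serp*, -2.42 ± 0.42 for *verm*, -1.35 ± 0.27 for *Cda4* and -1.26 ± 0.25 for *Cda5* (edgeR adjusted p = 0.00151, 0.00188, 0.00373 and 0.00447). Their size hung on the 2 E2F libraries, since without replicate 2 the values were -1.36, -1.27, -0.97 and -0.82, the last 2 not called, and without replicate 1 those of *serp* and *verm* were -3.13 and -3.05. Under library totals the 44 h values of *Cda4* (-0.97) and *Cda5* (-0.86) between these genotypes were not called. At 24 h no member was called between E2F + CycD and E2F wings, where 4.92% of genes were called in either direction. With an unadjusted edgeR p under 0.05 there were 3, *knk* (log2 fold change 0.85), *reb* (2.43) and *mmy* (-0.72), and DESeq2 called 1, *reb*, which had 26 and 31 counts in E2F + CycD wings and 4 and 8 in E2F wings.

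An interaction term asked if an effect at 44 h was unlike that at 24 h. For E2F + CycD, 4 members had a more negative effect at 44 h, *serp* (-4.67 ± 0.59), *verm* (-4.82 ± 0.59), *Cda4* (-2.66 ± 0.37) and *Cda5* (-2.17 ± 0.36), where 9.68% of genes did (edgeR adjusted p = 2.47e-04, 2.01e-04, 4.35e-04 and 0.0013). For E2F, 3 did, *serp* (-2.62 ± 0.57), *verm* (-2.46 ± 0.57) and *Cda4* (-1.59 ± 0.37), where 7.5% of genes did (edgeR adjusted p = 0.00846, 0.0119 and 0.0118). The E2F value of *Cda4* lost its call without replicate 1 of the E2F wings at 44 h (-1.28, adjusted p = 0.0502), and those of *serp* and *verm* were -1.98 and -1.81 without it and -3.76 and -3.59 without replicate 2. In E2F + CycD wings *verm* and *Cda4* had lower means at 44 h than at 24 h, 50.9 ± 9.6 against 64.8 ± 5.0 CPM and 51.4 ± 5.5 against 100.2 ± 1.6 CPM, while in control wings they were at 3164 ± 502 against 142.6 ± 0.2 CPM and 446.9 ± 185.7 against 137.5 ± 5.0 CPM (SD, n = 2). The change within a genotype was not tested.

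At 44 h the summed CPM of *trh* and *dys*, transcription factors of trachea, where Serp and Verm also act, was 81.1 to 82.7 in E2F + CycD wings, 70.0 to 71.8 in E2F wings and 113 to 126 in control wings, and that of 3 neuronal markers was 142 to 145, 146 to 156 and 230 to 253 CPM in the same order. The sum of 4 muscle markers was 66.2 to 82.8, 116 to 161 and 141 to 162 CPM, and that of 3 fat body markers 150 to 189, 231 to 328 and 124 to 212 CPM. Single markers had unlike levels too. *Act88F*, an actin of flight muscle, averaged 1.63 CPM in E2F + CycD wings and 20.6 CPM in E2F wings, against 4.02 CPM in control wings, and *Mhc*, the muscle myosin heavy chain, 8.01 and 31.0 against 34.4 CPM. *Lsp1alpha*, a storage protein gene of fat body, was at 11.54 and 10.45 CPM in E2F + CycD wings, 29.07 and 19.45 in E2F wings, against 4.28 and 9.48 in control wings. Blood cell markers summed to at most 4.28 CPM in these libraries, and the defining markers *He* and *eater* had no counts in 6 and 4 of all 24 libraries. The part of these tissues in the members' differences was not tested. The wing markers summed to 1661 to 1681, 1407 to 1529 and 1502 to 1771 CPM.

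Of the 13 other pathway genes tested, 11 were called lower in E2F + CycD wings at 44 h, where 16.1% of genes were. In E2F wings 7 were called lower, where 10.5% of genes were, and none was called higher in either genotype. Under library totals 6 and 5 were called lower and 1, *mtg*, higher in each genotype (log2 fold change 1.19 and 1.02). Under that scaling the lost calls were those of *Hex-A* (-0.46 in E2F + CycD and -0.57 in E2F wings), of *nst* (-0.69), *Treh* (-0.21), *Gnpnat* (-0.06) and *obst-A* (-0.24) in E2F + CycD wings, and of *Gasp* (-0.76) in E2F wings. *Pgi* (log2 fold change -2.56 ± 0.33 and -1.77 ± 0.32), *Hex-A* (-1.44 ± 0.14 and -1.18 ± 0.14), a hexokinase, *Gasp* (-2.38 ± 0.31 and -1.36 ± 0.30), *obst-B* (-2.81 ± 0.19 and -2.13 ± 0.19) and *Cda3* (-3.29 ± 0.31 and -1.87 ± 0.30) were called in both. *nst* (-1.67 ± 0.18), *Gnpnat* (-1.05 ± 0.23), *Treh* (-1.19 ± 0.21), which encodes trehalase, and *obst-A* (-1.22 ± 0.14) were called in E2F + CycD wings. *Peritrophin-A* had 19 and 10 counts in E2F + CycD wings, 8 and 6 in E2F wings, against 228 and 39 in control wings at 44 h, and was called in both. *obst-E*, called in both too, was at 0.17 and 0.32 CPM in E2F + CycD wings, 0.83 and 2.37 in E2F wings, against 42.8 and 26.2 in control wings at 44 h. *Gfat2* and *mtg* were not called. At 24 h 1 was called lower in E2F + CycD wings, *Gasp* (-1.88 ± 0.33), where 1.95% of genes were. In E2F wings *Gasp* (-1.53 ± 0.32) and *obst-B* (-1.20 ± 0.18) were called lower, where 2.01% of genes were, and *Cda3* (2.42 ± 0.36) higher, where 952 of 9636 genes were. *Cda3*, also of the deacetylase family, was at 0.79 and 1.87 CPM in E2F + CycD wings, 16.7 and 14.9 in E2F wings, against 3.8 and 2.2 in control wings at 24 h, so that its E2F libraries stood above all others there and below control at 44 h (128.2 and 149.8 CPM, against 642.9 and 369.6 CPM in control wings).

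Control and wild-type wings of the same nominal stage differed in many members. At 24 h *Cda4*, *Cda5*, *serp* and *verm* were called higher in control than in wild-type wings, where 18.6% of 9958 genes were, and *knk* and *reb* lower, where 17.5% were. At 44 h the same 4 deacetylase genes and *exp* were called higher, where 20.1% of genes were, and *knk* lower, where 15.7% were. The log2 fold change at 44 h was 3.63 ± 0.50 for *serp*, 3.33 ± 0.45 for *Cda5*, 2.75 ± 0.50 for *verm*, 1.87 ± 0.40 for *Cda4* (1.27 without control replicate 1) and -1.43 ± 0.20 for *knk* (edgeR adjusted p = 8.07e-06, 6.57e-06, 1.56e-04, 6.88e-04 and 7.24e-06). Calls close to the limits were lost with single libraries left out. At 24 h those of *Cda4* (log2 fold change 1.03, and 0.99 to 1.12 without any 1 of the 24 h libraries or of the control libraries at 44 h), *verm* (1.52, and 1.12 without wild-type replicate 2, beside 2.17 without replicate 1) and *reb* (-2.26, and -1.38 without control replicate 2 or -1.54 without wild-type replicate 1, beside -3.91 without control replicate 1) were lost, and at 44 h that of *exp* (1.08, and 0.95 to 1.02 without any 1 of 12 libraries). The other 2 genotypes at 44 h can be set beside wild type on the RPKM scale. *Cda5* averaged 94.7 in E2F + CycD and 225.5 in E2F wings, against 85.3 RPKM in wild-type wings. In the same order *Cda4* averaged 30.4 and 77.4 against 71.7, *serp* 14.2 and 80.2 against 99.6, and *verm* 24.6 and 130.9 against 225.6 RPKM. The differences of these 2 genotypes from wild type were not tested. Marker levels were unlike as well. *trh* averaged 199.2 CPM in control and 89.8 CPM in wild-type wings at 24 h, and 115.5 and 28.5 CPM at 44 h. At 24 h the wing markers *nub* and *rn* averaged 940.7 and 477.5 CPM in control wings against 195.7 and 93.7 CPM in wild-type wings, and *roX1* 3.39 against 35.0 CPM. Their part in the members' differences was not tested, and genotype, temperature history, heat shock, tissue make-up and library depth cannot be told apart in these comparisons.

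Over the 12 group means, centred on the log2(CPM + 1) scale, *serp* and *verm* were the closest pair of members, with a root mean square difference of 0.632, and *verm* was the nearest of 9957 genes to *serp*. *exp* ranked 9460th among the genes nearest to *kkv* (2.14) and *reb* 7583rd (1.54), and *reb* and *exp* differed by 3.08. The 5 genes nearest to *kkv* were *CG33523* (0.336), *CG10383* (0.348), *Ufsp1* (0.362), *CG44403* (0.371) and *CG13585* (0.413). These values describe 12 groups of 2 libraries that share their scaling. The centred values were not brought to equal size, so unlike sizes of change count as well as unlike timing. *exp*, for example, rose 134-fold at 6 h against L3 where *kkv* rose 5.65-fold. The added 1 compresses the low levels of *reb*.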

How the data were processed

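Messenger RNA libraries (24, of which 12 are wild type and 12 transgenic) were used; the 34 FAIRE libraries were not analysed here. Per the paper's methods and the submitters' processing notes, the authors used STAR (genome dm6) and HTSeq, and deposited raw counts per gene for each library, neither normalized nor pooled. Versions, annotation and strand setting are not given in the sources used here. Lines naming no gene stayed out of library sizes: reads without a feature came to 3.84% to 7.43% of those lines and the gene counts, ambiguous reads to 0.40% to 0.73% and multiply aligned reads to 31.6% to 62.8%.

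From the counts, edgeR 4.0.16 in R 4.3.3 was run on the wild-type (8669 genes), transgenic (9636) and all (9958) libraries, with filterByExpr (minimum count 10, minimum total 15), TMM scaling and the quasi-likelihood F-test, adjusted by Benjamini-Hochberg over all genes of the fit. DESeq2 1.42.0, RLE scaling, no low-count filter, a replicate block, fits of the compared groups alone, and each library left out were alternatives. Library-total scaling, the summary without either 6 h library and the TATAAA search were added after the data had been seen. Common biological variation was 20.2% (wild type), 16.4% (transgenic) and 18.8% (all). A standard error is the log2 fold change over the root of F. The scripts were tested on simulated counts. Groups came from the sample labels. Symbols matched 17253 of 17559 identifiers; *Gfat1*, *ap* and *btl* did not match and were not used. All 10 members were described, pathway genes were named with values where called, and the 5 genes nearest to *kkv* by root mean square difference were named. The members and lists were chosen with earlier results of these data known. Sequences were read from the Release 6 genome (NCBI) at Ensembl gene starts.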

Additional observations from a re-analysis of the deposited data

Results flagged for a closer look

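The effect of the transgenes differed between 24 h and 44 h, by edgeR's interaction test, for 4 members and 7 other pathway genes. The members, on the log2 scale, were *serp* (-4.67 for E2F + CycD and -2.62 for E2F), *verm* (-4.82 and -2.46), *Cda4* (-2.66 and -1.59) and *Cda5* (-2.17 for E2F + CycD). Other genes were *Cda3* (-2.15 and -4.29), *nst* (-1.19 and -1.16), *Pgi* (-2.38 and -1.62), *obst-E* (-6.77 and -4.76) and *Peritrophin-A* (-5.96 and -6.72), and, for E2F + CycD, *Hex-A* (-1.44) and *obst-B* (-2.06). *Peritrophin-A* had 2 and 3 counts in control wings at 24 h and *obst-E* 3 and 5 counts in E2F + CycD wings at 44 h, so their fitted values depend on the prior count and are no bounds. Under library totals, 4 of the pathway genes called lower for E2F + CycD and 3 of those for E2F were called lower, and 1, *mtg* (for E2F + CycD), higher. Over all genes, 9.68% were called more negative at 44 h for E2F + CycD and 7.5% for E2F. No explanation was tested.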

How the results depend on the processing

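Of 72 called values of the members, the 10 over all stages left out, none was reversed by any alternative, 51 kept their call under all of them, 17 lost it without 1 library, 12 in another alternative and 10 of these under library totals. The replicate number as a block changed no count of called members (for example 9 at 6 h against L3 and 6 in E2F + CycD wings at 44 h) and lost none of the called values. Correlations between same-numbered deviations ran from -0.21 to 0.24 in the wild-type, -0.10 to 0.23 in the transgenic and -0.19 to 0.23 in all libraries. In the transgenic libraries 6 of 15 were over 0.1 and 0 under -0.1, so a weak pairing by replicate number is not excluded. The count of called members at 24 h against 18 h was 2 in place of 1 without the low-count filter or with only the groups compared, and that between E2F + CycD and E2F wings was 1 in place of 0 at 24 h under these settings and DESeq2, and 2 in place of 4 at 44 h under library totals. With 1 library left out the counts ranged from 0 to 2 (24 h against 18 h), 1 to 4 (36 h against 24 h), 1 to 5 (E2F at 24 h), 0 to 4 (E2F + CycD at 24 h), 0 to 1 and 2 to 4 (E2F + CycD against E2F at 24 h and at 44 h); where a group was left with 1 library it was assumed to vary like the others. Under library totals, with the shift of all genes given above, these values that had not been called changed sign: *kkv* 0.09 (E2F, 24 h) and 0.41 (E2F + CycD, 44 h), *reb* 0.40 and 0.05 (E2F and E2F + CycD, 44 h), *knk* 0.07 and 0.02 (E2F and E2F + CycD, 44 h) and 0.12 (E2F + CycD, 24 h), *rtv* 0.05 (E2F, 44 h) and 0.03 (E2F + CycD, 44 h minus 24 h), and *mmy* 0.48 (E2F + CycD, 44 h) and 0.11 (24 h). With 1 library left out, values that had not been called ran from -1.21 to 0.39 and from -1.23 to 0.00 for *reb* at 18 h against 6 h and 44 h against 36 h, from -0.13 to 1.95 for *Cda5* at 44 h against 6 h, from -0.22 to 0.09 and -0.07 to 0.15 for *kkv* in E2F wings at 24 h and 44 h, from -1.86 to 0.74 and -0.83 to 0.31 for *reb* there, from -0.92 to 1.69 for its difference between these times, from -0.21 to 0.36 for *mmy* in E2F wings at 44 h, and from -0.18 to 0.13 for *knk* and -0.20 to 0.05 for *mmy* in E2F + CycD wings at 24 h. *mmy* at 44 h against 6 h (-1.65) and *Cda4* in the E2F interaction (-1.38) lost their calls with only the groups compared. Over all genes, 4716 in place of 3014 were called for E2F + CycD at 44 h and 3302 in place of 1702 in its interaction under library totals, and with 1 library left out as few as 317 of 801 at 24 h against 18 h and 310 of 474 between E2F + CycD and E2F wings at 24 h. The share of called genes that were higher, over all genes, was 87.0% under library totals in place of 48.4% for E2F + CycD and 83.2% in place of 54.7% for E2F at 44 h, 73.2% in place of 40.7% between them, 86.6% in place of 45.2% and 76.2% in place of 45.1% in the interactions, 28.6% in place of 54.8% at 6 h, 70.9% in place of 45.8% at 18 h, 33.5% in place of 44.8% at 24 h, 37.1% in place of 58.1% at 36 h and 33.4% in place of 53.1% at 44 h, each against the stage before it, 40.9% in place of 53.6% at 44 h against 6 h, and 33.6% in place of 51.4% and 21.7% in place of 56.1% for control against wild type at 24 h and 44 h. With 2 libraries a group and totals from 1900774 counts, the standard error of the log2 fold changes of *reb* ran from 0.48 to 1.17, against at most 0.61 for the other members.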
